A study of Mus musculus with 5 samples.

Results

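The genes described here are 34 genes of B cells, of the lymphoid follicles in which B cells gather and of the germinal centres that form there. They were chosen by name as known B cell and follicle genes, with earlier results of these data known, and every probe of each on the array was taken. All 34 were on the array, with 51 probes, among 32917 features tested. Of the 34, 33 genes with 46 probes were well above background on at least 2 of 5 arrays and were tested, and Mef2b was not. Expression was measured in whole colon of young adult wild-type mice, of the strain labelled C57BL/B6, on 5 single-colour Agilent arrays with 1 mouse each. The Control group had 2 mice, described as untreated, and the NT-3N group had 3 mice whose colon was taken 3 hr after an intravenous injection of NT-3N. NT-3N is an agonist of the IL-11 receptor, a modified human IL-11, and the comparison asked how colonic gene expression differed after it was given. No vehicle injection of the Control mice is named in the labels, so effects of the agonist and of being injected cannot be told apart.

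B cells recognise antigen through a receptor whose signalling chains are Cd79a and Cd79b, and inhibitory receptors such as Cd22 and Cd72 set its threshold. In the colon they sit mainly in isolated lymphoid follicles and larger colonic patches, which lie scattered along the gut. Follicles are held together by the chemokine Cxcl13 and its receptor Cxcr5 and by lymphotoxin, and inside them the repressor Bcl6 directs the germinal centre, where B cells mutate and select their antibodies. Ccr6 and its ligand Ccl20 link B cells to the epithelium over the follicle. In bulk tissue, fewer B cells and less RNA per B cell cannot be told apart.

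To show the control regions of members whose values are described below, the windows from 250 bases before to 50 bases after the annotated transcript start were taken from RefSeq, build GRCm38.p6, which held 34 windows for 28 of the 34 members. The array design refers to another build, so these coordinates belong to the promoters and not to the probes. Both strands were searched for 3 motifs, the octamer ATGCAAAT that Oct factors such as Pou2f2 bind, the EBF palindrome, TCCC and GGGA with 2 bases of any kind between them, and the palindrome TTCCNGGAA of the STAT factors, through which receptors of the IL-11 family signal. The capitals mark the matches in windows of 4 members, each written in the direction of its gene.
Bcl6, chr16:23981234-23981533, minus strand, STAT palindrome: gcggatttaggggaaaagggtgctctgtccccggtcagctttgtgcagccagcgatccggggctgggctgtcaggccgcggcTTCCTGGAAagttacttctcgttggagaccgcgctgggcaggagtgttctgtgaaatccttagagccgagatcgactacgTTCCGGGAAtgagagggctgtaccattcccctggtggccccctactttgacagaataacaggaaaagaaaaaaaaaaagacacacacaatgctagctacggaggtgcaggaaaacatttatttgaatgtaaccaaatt
Cd22, chr7:30878979-30879278, minus strand, EBF palindrome: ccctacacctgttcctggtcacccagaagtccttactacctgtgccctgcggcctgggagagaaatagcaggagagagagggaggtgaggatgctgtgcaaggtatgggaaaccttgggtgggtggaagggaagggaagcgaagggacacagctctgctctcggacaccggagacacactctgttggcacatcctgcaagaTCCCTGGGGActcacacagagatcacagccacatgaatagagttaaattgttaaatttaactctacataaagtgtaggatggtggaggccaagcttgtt
Ccr6, chr17:8235793-8236092, plus strand, octamer: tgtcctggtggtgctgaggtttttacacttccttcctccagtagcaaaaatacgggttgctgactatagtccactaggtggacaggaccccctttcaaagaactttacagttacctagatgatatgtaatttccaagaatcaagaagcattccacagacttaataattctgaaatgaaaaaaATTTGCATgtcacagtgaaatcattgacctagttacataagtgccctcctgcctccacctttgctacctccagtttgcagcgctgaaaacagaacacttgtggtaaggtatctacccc
Vpreb3, chr10:75948050-75948349, plus strand, octamer: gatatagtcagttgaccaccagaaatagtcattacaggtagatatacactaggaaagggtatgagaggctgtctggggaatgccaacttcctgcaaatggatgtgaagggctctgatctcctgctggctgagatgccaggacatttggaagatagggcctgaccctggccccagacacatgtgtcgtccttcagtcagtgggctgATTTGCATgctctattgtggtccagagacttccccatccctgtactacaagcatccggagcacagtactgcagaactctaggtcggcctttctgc
The octamer was found in windows of 4 members (Blnk, Ccr6, Mef2b and Vpreb3) and in 1.74% of 32851 windows of the whole table. The EBF palindrome was found for Cd22 only among the members and in 0.904% of all windows. The STAT palindrome was found for Bcl6 only, with 2 matches in the window, and in 1.15% of all windows. A match is a description of these letters and not of binding.

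Signal above background was found for 70.6% to 73.0% of probes, depending on the array, and 0 spots were saturated. Of the 34 members, 32 were well above background on all 5 arrays, so B cell transcripts were measured on every array. Blk was above background on 3 arrays and Mef2b on 1. The 7 epithelial and 6 smooth muscle markers of colon were above background on all 5 arrays. All values below are log2 intensities after quantile normalization, and a difference between groups is NT-3N minus Control on that scale. Levels are compared within a probe only, since probes differ in brightness.

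No member passed an adjusted p of 0.05 in limma in either direction, where 0.125% of all features were called higher and 0.0182% lower. Without adjustment, 2 members, Ms4a1 and Bcl6, were higher at p under 0.05, beside 4.95% of all features, and 0 members were lower, beside 4.67%. Under 17 other settings of the analysis, Ms4a1 was called higher in 6 and Bcl6 in 5. Those of Ms4a1 include the fits without Control replicate 1 and without Control replicate 2, which take no spread from the Control mice. The difference was above 0 for 29 members and below 0 for 4, namely Cd22, Pax5, Fcrl5 and Pou2f2. Over the 33 members its median was 0.50, while over all features the median was −0.019 and 46.4% were above 0. The arrays of the groups did not overlap for 6 members. NT-3N was higher on every array for 5 of them, Ms4a1, Bank1, Cd83, Bcl6 and Rgs13, beside 13.5% of all features. It was lower on every array for 1, Fcrl5, beside 14.8%.

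The 2 Control mice differed from each other in these genes more than the groups did. Control replicate 1 minus Control replicate 2 had a median of 1.17 over the members and of 0.012 over all features. It was above 1 for 18 of 33 members, between 1.02 and 3.63, against 1.89% of all features. Control replicate 2 was the lowest of the 5 arrays for 24 members, where 19.2% of all features had their lowest value on that array. Control replicate 1 was the highest for 15 members, beside 19.8% of all features. For 29 members the difference between the Control arrays was larger than the difference between the group means. A gap between 2 single arrays varies more than a difference between group means, and the share over all features was not computed for this count. The median SD of a member was 0.945 over the Control arrays and 0.125 over the NT-3N arrays, while over all features it was 0.116 and 0.174.

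**Figure D1:**
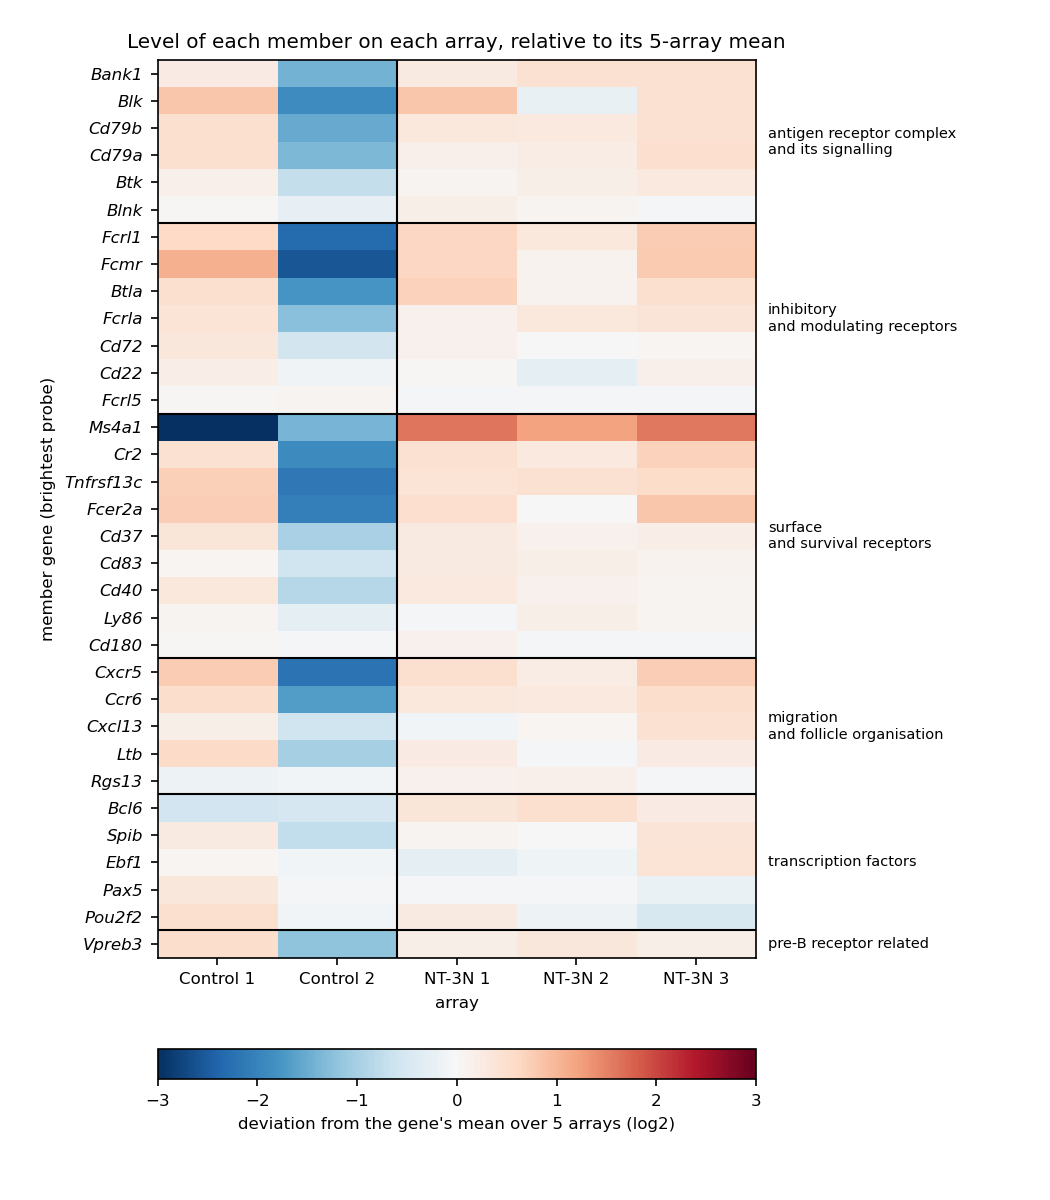
Colours show, for each of the 33 members tested and each array, the deviation of the log2 intensity from that gene's mean over the 5 arrays, with the members grouped by role. The blue column of Control 2 holds the lowest value of 24 members, Ms4a1 has its lowest value on Control 1, and Bcl6 is below its mean on both Control arrays.

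Among the genes of the antigen receptor complex and its signalling, all 6 had a difference above 0, with a median of 0.80, and all 6 were lowest on Control replicate 2. Cd79b, a signalling chain of the receptor, stood at 11.20 and 9.20 on Control replicates 1 and 2 and at 11.03, 11.01 and 11.16 on the NT-3N arrays. Bank1, a scaffold of receptor signalling, stood at 6.73 and 5.08 on the Control arrays and at 6.75, 6.95 and 6.96 on the NT-3N arrays. For both genes Control replicate 1 lay next to the NT-3N mice, and Control replicate 2 alone was low. The difference was 0.87 ± 0.52 (SE, 2 against 3 mice) for Cd79b, with an adjusted p of 0.646 in limma, and 0.98 ± 0.45 for Bank1, with an adjusted p of 0.560. Cd79a, the other signalling chain, differed by 0.73 and the kinase Btk by 0.48. The kinase Blk differed by 0.88 but was dim, and the adaptor Blnk, on the brightest probe of the role at 14.95 to 15.39, differed by 0.18.

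The inhibitory and modulating receptors had a median difference of 0.71, and the Control arrays were more than 1 apart for 4 of the 7. Fcmr, the Fc receptor for IgM, showed the widest gap of any member between the Control mice, 10.15 against 6.51, or 12.4-fold, with 9.69, 9.17 and 9.86 on the NT-3N arrays. Fcrl1, an Fc receptor-like protein of B cells, stood at 6.67 and 3.77 on the Control arrays and at 6.69, 6.38 and 6.84 on the NT-3N arrays. Btla, an inhibitory receptor that B and T cells carry, stood at 8.10 and 5.84 and then at 8.30, 7.70 and 8.10. In each of these, Control replicate 1 lay within or above the NT-3N values. The differences between groups were 1.24 ± 0.95 for Fcmr, 1.41 ± 0.77 for Fcrl1 and 1.07 ± 0.61 for Btla, with adjusted p-values in limma of 0.717, 0.618 and 0.635. Fcrla differed by 0.71 in the same pattern. Cd72 differed by 0.17 and Cd22 by −0.075 on their brightest probes. Fcrl5 differed by −0.11, with 11.97 and 12.01 on the Control arrays and 11.88 to 11.89 on the NT-3N arrays. These values come from its brightest probe. The other Fcrl5 probes were above background on 0 arrays and were not tested.

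Of the 9 surface and survival receptors, all had a difference above 0, with a median of 0.50, and Ms4a1 differed from the rest in its order of arrays. Cr2, the complement receptor CD21 of B cells and follicular dendritic cells, stood at 9.66 and 7.31 on the Control arrays and at 9.65, 9.51 and 9.90 on the NT-3N arrays. Tnfrsf13c, the receptor for the survival factor BAFF, stood at 8.72 and 5.87 and then at 8.43, 8.46 and 8.56. Fcer2a, the low-affinity IgE receptor CD23, stood at 7.76 and 4.98 and then at 7.53, 7.03 and 7.85. These 3 genes again set Control replicate 2 apart from the other 4 mice, and their differences of 1.20 ± 0.62 for Cr2, 1.19 ± 0.74 for Tnfrsf13c and 2.14-fold for Fcer2a had adjusted p-values in limma of 0.600, 0.655 and 0.685. Cd37, a tetraspanin, differed by 0.50, the activation marker Cd83 by 0.45 and the co-stimulatory receptor Cd40 by 0.44. Ly86 and Cd180, which form a receptor complex together, differed by 0.18 and 0.018.

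Ms4a1, which encodes the B cell surface protein CD20, stood at 4.95 on Control replicate 1, at 6.53 on Control replicate 2 and at 9.54, 9.13 and 9.51 on the NT-3N arrays. All NT-3N mice were far above both Control mice, and here Control replicate 1, not replicate 2, was the lowest. The difference was 3.65 ± 0.43, or 12.6-fold, with a 95% confidence interval from 2.61 to 4.70. In limma its p was 0.000114 before adjustment and 0.0595 after it. It was the largest difference among the members. Against Control replicate 1 alone it was 4.44, and against Control replicate 2 alone it was 2.87. Ms4a1 has 1 probe on the array, so no other probe could be set beside it.

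**Figure D2:**
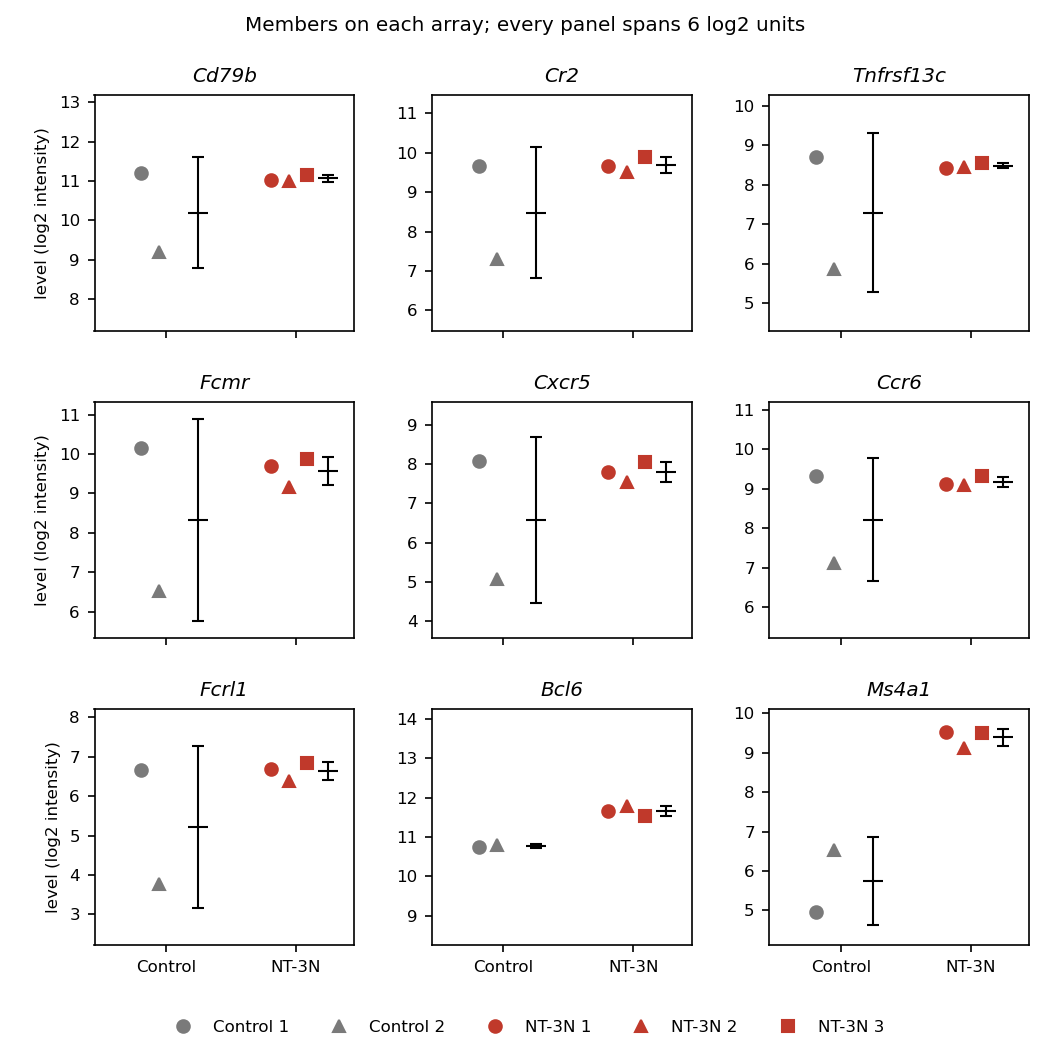
Points show the log2 intensity of 9 members on each of the 5 arrays, and bars the mean ± SD of each group; every panel spans the same range on its axis. In 7 members Control 2 sits apart below the other 4 mice, while Bcl6 and Ms4a1 have both Control mice below the 3 NT-3N mice.

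Among the genes of migration and follicle organisation, all 5 had a difference above 0, with a median of 0.35. Cxcr5, the receptor that takes B cells into follicles, stood at 8.08 and 5.09 on the Control arrays and at 7.80, 7.54 and 8.05 on the NT-3N arrays. Ccr6, the receptor for Ccl20, stood at 9.32 and 7.11 and then at 9.11, 9.09 and 9.32. Both repeated the order seen for the antigen receptor genes, with differences of 1.21 ± 0.79 and 0.96 ± 0.58 and adjusted p-values in limma of 0.669 and 0.647. Cxcl13, the ligand of Cxcr5, which stromal cells of the follicle make, differed by 0.35, and its Control arrays were 0.77 apart where those of its receptor were 2.99 apart. Ltb, which encodes lymphotoxin beta, differed by 0.35 and had Control arrays 1.59 apart. Rgs13, a regulator of chemokine receptor signalling in germinal centre B cells, differed by 0.20, with Control arrays 0.062 apart.

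The 5 transcription factors tested had a median difference of 0.020, and the Control arrays were more than 1 apart for 1 of them, Spib. Bcl6 stood at 10.74 and 10.80 on the Control arrays and at 11.67, 11.78 and 11.54 on the NT-3N arrays. The Control mice were next to each other and all NT-3N mice were above them. The difference was 0.89 ± 0.10, or 1.85-fold, with a 95% confidence interval from 0.65 to 1.14. In limma its p was 8.95e-05 before adjustment and 0.0538 after it. Against Control replicate 2 alone the difference was 0.86, and against Control replicate 1 alone 0.92, so its size did not turn on either Control mouse. Bcl6 is also made by cells other than B cells, and whole colon does not tell which cells carried it. The lineage factors Pax5 and Ebf1 differed by −0.23 and 0.020 and had Control arrays 0.41 and 0.16 apart. Spib, an Ets factor of B cells that some gut epithelial cells also use, differed by 0.39 with Control arrays 1.02 apart. Pou2f2, which encodes Oct-2, differed by −0.32.

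Vpreb3, named for the surrogate light chain of precursor B cells, stood at 9.12 and 7.38 on the Control arrays and at 8.79, 8.93 and 8.77 on the NT-3N arrays. Control replicate 2 was again the low one, and the difference was 0.58 ± 0.46 with an adjusted p of 0.728 in limma. Mef2b, a factor of germinal centre B cells, was above background on 1 NT-3N array only and has no test.

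Because the Control mice differed, the NT-3N mean was also set against each Control array alone, a choice made after the values were seen. Both comparisons use the same 3 NT-3N arrays. With 1 Control array, the fit takes no spread from the Control mice. The median SD of a member was 0.945 over the Control arrays and 0.125 over the NT-3N arrays. Only differences are therefore given here. Against Control replicate 1, the median difference of the members was −0.12, 8 were above 0 and 25 below, and 29 lay within 0.5 of 0. At an unadjusted p under 0.05, 2 were higher, beside 3.34% of all features, and 1 was lower, beside 2.73%. Ms4a1 was called at an adjusted p under 0.05, beside 0.346%. Against Control replicate 2, the median was 1.14 and 30 of 33 were above 0. At an unadjusted p under 0.05, 25 members were higher, beside 4.08% of all features. At an adjusted p under 0.05, 5 were called, Ccr6, Cd79b, Cr2, Ms4a1 and Tnfrsf13c, beside 0.0942% of all features. Over all features the median was −0.027 against Control replicate 1 and −0.0097 against Control replicate 2.

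**Figure D3:**
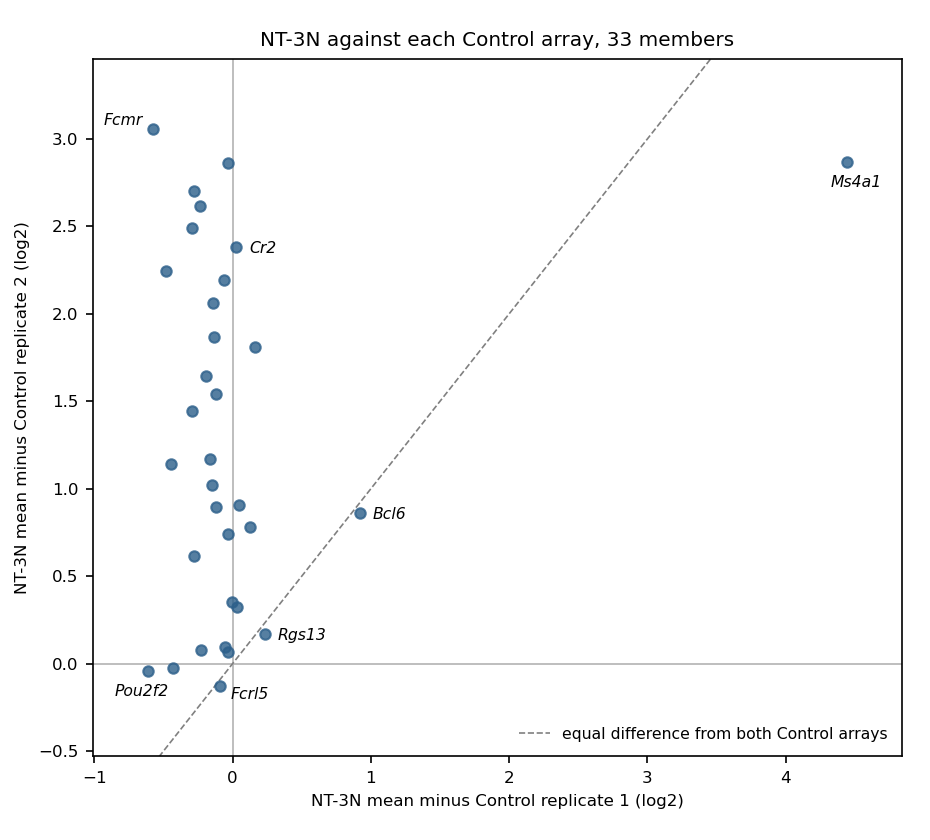
Each point is 1 of 33 members, with the NT-3N mean minus Control replicate 1 on the horizontal axis and minus Control replicate 2 on the vertical axis, both in log2. Most points lie near 0 on the horizontal axis and reach up to 3.06 on the vertical axis, while Bcl6 lies on the line of equal difference and Ms4a1 is far from 0 on both.

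Separate probes of 1 gene were compared for the 11 members with several tested probes, 24 probes in all. The difference between groups had the same sign on every probe for 9 members, with a median spread of 0.34 between the lowest and the highest probe. The order of the Control arrays had the same sign on every probe for 10 of 11. For Fcrl1 (3 probes, 1.41 to 1.76), Btla (1.07 and 1.08), Btk (0.46 and 0.48) and Cd37 (0.50 and 0.65) the probes gave much the same difference. The dimmer probes of Fcrl1 and Btk were above background on only 1 Control array, so their differences rest partly on a value near background.

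The probes of 4 members disagreed in sign or by more than 1. The brightest Cd22 probe stood at 9.47 and 9.17 on the Control arrays and at 9.30, 9.00 and 9.43 on the NT-3N arrays, a difference of −0.075 ± 0.17. The second Cd22 probe stood at 7.20 and 4.80 and then at 7.03, 6.80 and 7.12, a difference of 0.98 ± 0.63. The dimmer probe thus followed the B cell surface genes, with Control replicate 2 low, and the brightest did not. The remaining Cd22 probe was above background on 1 array only.

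The 3 Cr2 probes agreed in order and differed in size. The brightest is given above, with a difference of 1.20. The second stood at 8.13 and 6.09 on the Control arrays and at 8.18, 7.99 and 8.43 on the NT-3N arrays, a difference of 1.09 ± 0.55. The third stood at 6.74 and 2.45 and then at 6.69, 6.66 and 7.33, a difference of 2.30 ± 1.12, and was not above background on Control replicate 2. All 3 probes put Control replicate 2 below the other mice.

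For Tnfrsf13c, the second probe stood at 5.24 and 3.83 on the Control arrays and at 5.12, 4.16 and 4.63 on the NT-3N arrays, a difference of 0.10 ± 0.49 where the brightest probe gave 1.19. Control replicate 2 was the lowest on both probes, but on the second NT-3N replicate 2 was nearly as low. The brightest Pou2f2 probe stood at 6.67 and 6.10 and then at 6.45, 6.03 and 5.70, a difference of −0.32 ± 0.28. Its second probe stood at 5.94 and 4.78 and then at 5.67, 5.69 and 5.87, a difference of 0.38 ± 0.35. Only the second had its lowest value on Control replicate 2.

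The Cd72 probes, chosen for description after their values were seen, gave the Control arrays in opposite order. The brightest stood at 9.78 and 8.88 on Control replicates 1 and 2 and at 9.57, 9.43 and 9.50 on the NT-3N arrays. The second stood at 5.89 and 6.71 and then at 7.53, 7.25 and 7.51, a difference of 1.13 ± 0.26 with a p in limma over all probes of 0.00388 before adjustment and 0.250 after it. On the second probe both Control mice were below all NT-3N mice and Control replicate 1 was the lowest, the order that Ms4a1 showed. No value here tells which of the Cd72 probes follows its transcript.

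**Figure D4:**
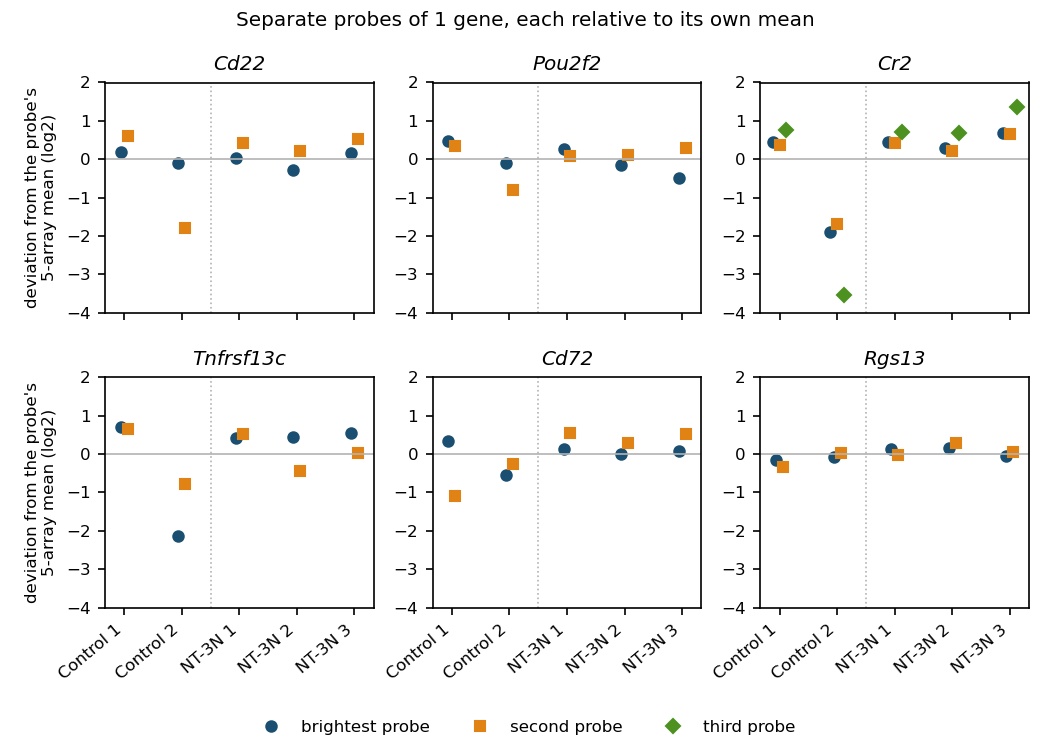
Points show each tested probe of 6 genes on each array as its deviation in log2 from that probe's own mean over the 5 arrays; Rgs13, chosen after its values were seen, is shown as a gene whose probes moved little. The Cr2 probes dip together on Control 2, the brightest Cd22 and Pou2f2 probes do not dip as their second probes do, and the second Cd72 probe is lowest on Control 1.

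Of 48 further B cell and follicle genes outside the 34, 44 were tested, 31 had a difference above 0 and 0 were called. Their median difference was 0.15, and 4 were higher at an unadjusted p under 0.05, beside 4.95% of all features, among them Cd38, Fcgr2b and Pou2af1. H2-Oa, a class II antigen-loading regulator, and Ccr7, a homing receptor of lymphocytes, differed by 0.98 and 0.86, with Control arrays 1.55 and 2.08 apart. Both were lowest on Control replicate 2. The gap between the Control arrays was above 1 for 10 of the 44, and Control replicate 2 was the lowest for 29. Their summed intensity was 96304 and 99880 on the Control arrays and between 93529 and 108667 on the NT-3N arrays, so the sum, which the brightest genes fill, did not show the gap. Against Control replicate 2 alone, the median difference of these genes was 0.35, and against Control replicate 1 alone it was −0.065. The immunoglobulin genes Ighm, Ighd, Igkc and Iglc1 were not named on these arrays and are not analysed here.

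Markers of other cells were read on the same arrays. Of the lymphoid stroma and follicle vessel markers, 6 of 8 were tested, all 6 were lowest on Control replicate 2, and their median difference was 0.67. Ccl19, a chemokine of lymphoid stroma, stood at 7.96 and 5.69 on the Control arrays and at 9.24, 7.88 and 8.98 on the NT-3N arrays, with an adjusted p of 0.480 in limma. Their summed intensity was 42069 on Control replicate 1 and 22954 on Control replicate 2, and between 37540 and 51520 on the NT-3N arrays. The brightest genes, Mfge8 and Clu, weigh most in this sum. The stroma markers were thus low on the array on which the B cell genes were low. Of the follicle-associated epithelium markers, 6 were tested, 3 were lowest on Control replicate 2 and their median difference was 0.13, with a summed intensity of 17152 and 21014 on the Control arrays and between 16610 and 19146 on the NT-3N arrays. Ccl20, the ligand of Ccr6, stood at 8.30 and 6.34 and then at 8.25, 8.19 and 8.50. Gp2, a surface protein of M cells, which carry antigen into follicles, stood at 9.76 and 4.51 and then at 8.93, 4.85 and 8.48, so NT-3N replicate 2 was low in Gp2 while its B cell genes were not. Tnfaip2 was called higher, by 1.38 with an adjusted p of 0.0345 in limma, with Control arrays 0.23 apart. The remaining follicle-associated epithelium markers went the other way between the Control mice. Control replicate 1 minus Control replicate 2 was −0.54 for Ccl9, −0.38 for Pglyrp1 and −0.24 for Marcksl1. The median of that gap over the 6 markers was −0.0074.

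In 7 other lists the gap between the Control arrays was small, and in fat genes it was wider than in the members. The median of Control replicate 1 minus Control replicate 2 was 0.20 over 15 T cell markers, 0.021 over 8 plasma cell markers, 0.029 over 7 macrophage markers, 0.33 over 5 dendritic cell markers, −0.35 over 5 proliferation genes, −0.030 over 6 smooth muscle genes and 0.060 over 7 epithelial genes. It was above 1 for 0 genes of these 7 lists. The median difference between groups was 0.10 for T cell, 0.077 for plasma cell, −0.0038 for macrophage, 0.063 for dendritic cell, 0.15 for proliferation, −0.28 for smooth muscle and −0.030 for epithelial genes, with 0 called in each. Of 5 fat genes, 3 had a gap above 1, with a median of 2.35, and their level differed widely among the NT-3N mice too, with medians from −1.68 to 1.04 around the 5-array mean. The part of lymphoid stroma, follicle epithelium, or fat in the values of the B cell genes was not tested.

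**Figure D5:**
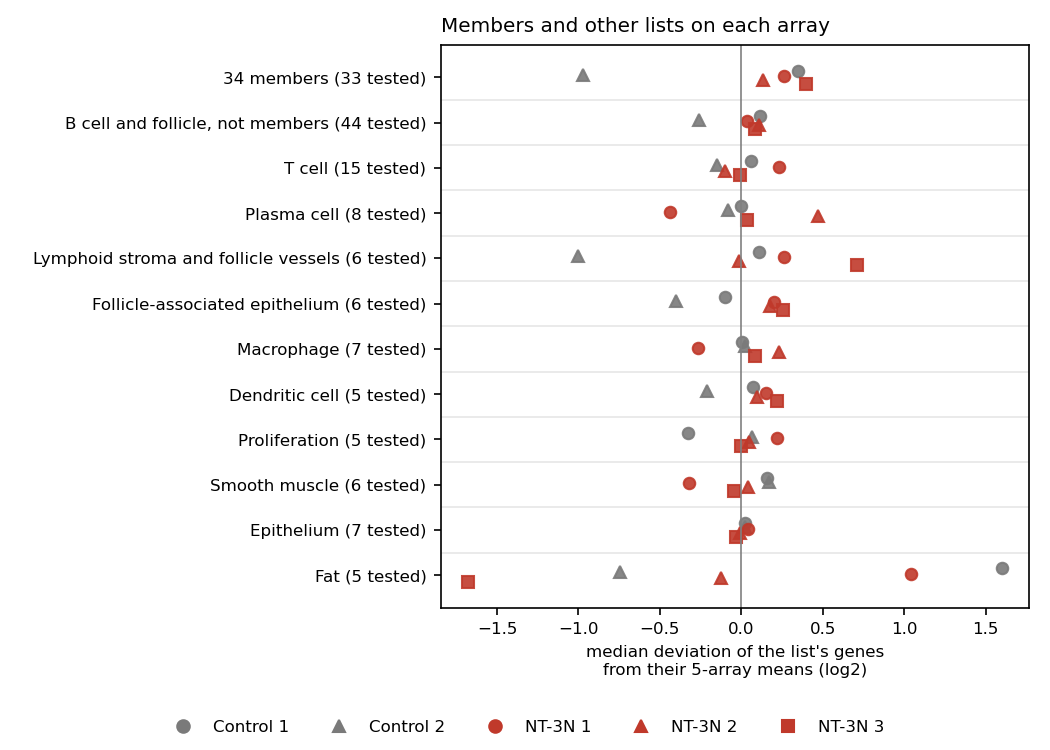
Each point is the median, over the tested genes of a list, of the deviation from the gene's 5-array mean in log2, on 1 array. Control 2 sits lowest for the members at −0.97, for the lymphoid stroma markers near that value, and by less for follicle-associated epithelium at −0.40, further B cell genes at −0.26, dendritic cells at −0.21 and T cells at −0.15, but not for the other 6 lists.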

How the data were processed

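The report covers colon of 2 Control and 3 NT-3N mice, 1 array each. The authors extracted spots with Agilent Feature Extraction 11.0.1.1, and the deposited scanner files hold background-subtracted intensity, not scaled between arrays. The authors also deposited log2 values, which matched quantile-normalized processed signal (lowest correlation over the arrays 0.99998) and were used as an alternative. Here control spots and outlier spots (69 to 184 of 59305 on an array) were left out, spots of a probe were averaged, and log2 intensities were quantile-normalized. Probe accessions without version were matched to a RefSeq table (GRCm38.p6), which named 32989 of 56605 probes. Probes well above background on at least 2 arrays were kept, and a gene was represented by its brightest probe.

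Groups were compared over 32917 features with limma 3.58.1 (lmFit, eBayes with an intensity trend, two-sided) in R 4.3.3, with Benjamini-Hochberg adjustment and a threshold of 0.05. Separate probes were fitted over all probes. The methods name a local-pooled-error test, and limma was used in its place. The fit was tested on simulated data. The members, lists and roles were chosen with earlier results of these data known. Levels were printed for members called, for the 12 largest differences among members above background on all arrays, for probes of members that differed in sign or by more than 1, and for 1 member of each remaining role. From other lists, up to 3 genes with the largest differences above background on all arrays were given by level. Genes at an unadjusted p under 0.05 were also named, after their values were seen. Values of some genes are not reported here. Alternatives changed scaling, background correction, source of values, dim-probe filter, variance model, array weights, replicate block, probe rule and arrays. All arrays shared 1 slide and 1 scan time. The number of arrays limits the precision.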

Additional observations from a re-analysis of the deposited data

How the results depend on the processing

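No member was called lower under any alternative run. The count of members called higher, 0, became 1 under median scaling (Ms4a1), normexp on the spot median (Ms4a1), the deposited log2 values (Bcl6), robust variance (Bcl6) and every probe tested (Bcl6), and 2 (Ms4a1 and Bcl6) with only probes above background on all arrays and with array quality weights. The number of all features called higher moved too, from 41 of 32917 to 48 under median scaling, 38 under normexp, 54 with robust variance, 124 with array quality weights, 50 of 29441 in the deposited values, 50 of 29830 with probes above background on all arrays and 54 of 41590 with every probe. It was 2 with no filter on dim probes and with no intensity trend. Leaving out 1 array at a time gave 0 to 5 called, with 0 to 114 of all features called higher, 2 to 25 higher at an unadjusted p under 0.05, and a median difference between −0.12, when Control replicate 2 was left out, and 1.14, when Control replicate 1 was. Over 17 alternatives each, Ms4a1 was called in 6 and Bcl6 in 5. The adjusted p of Bcl6 in limma ranged from 0.0287 to 0.491. Leaving aside the fits with 1 Control array, that of Ms4a1 ranged from 0.0324 to 0.531. Other scalings, filters and probe rules moved the median between 0.37 (normexp) and 0.58 (mean of probes).

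Among single members, Cd180 turned to −0.0015 under the 75th percentile and to −0.023 under array weights, Ebf1 to −0.18 with the replicate block, and Cd22 to 0.45 and Pou2f2 to 0.029 with the mean of their probes. Members whose sign turned when 1 array was left out had these lowest and highest differences: Blk −0.48 to 2.25, Btla −0.063 to 2.19, Ccr6 −0.14 to 2.06, Cd180 −0.043 to 0.066, Cd22 −0.23 to 0.076, Cd37 −0.17 to 1.17, Cd40 −0.15 to 1.02, Cd72 −0.28 to 0.62, Cd79a −0.19 to 1.65, Cd79b −0.13 to 1.87, Cxcl13 −0.032 to 0.74, Cxcr5 −0.28 to 2.71, Ebf1 −0.18 to 0.16, Fcer2a −0.29 to 2.49, Fcmr −0.57 to 3.06, Fcrl1 −0.035 to 2.86, Fcrla −0.12 to 1.54, Ltb −0.45 to 1.14, Ly86 −0.0043 to 0.36, Spib −0.12 to 0.89, Tnfrsf13c −0.23 to 2.62, Vpreb3 −0.29 to 1.45. For 21 of them the array was Control replicate 2.

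The labels do not say whether replicate numbers mark paired mice. The deviations of same-numbered mice correlated at 0.13 and 0.036 over 32910 features. With 2 Control arrays, both correlations use the same difference between the Control mice, so they cannot decide it. The fit with the replicate block, which drops NT-3N replicate 3 as it has no partner, called 0 of all 32917 features, so its 0 called members say nothing of the members. It gave 3 members higher at an unadjusted p under 0.05, beside 1138 of all features, and a median of 0.50. The slide and scan block was not run, with 1 slide and 1 scan. Normexp on the spot median in place of the mean, and each Control array alone, were chosen after seeing the data. The deposited values hold 31 of the 33 members. With 2 Control mice that differ from each other, the spread of most members rests on 1 pair of arrays. The cause of these dependences was not tested.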
